A study of Mus musculus with 12 samples.

Results

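Genes that NRF2 switches on to make and recycle glutathione, to reduce peroxides and to clear reactive carbonyls were followed in type II alveolar epithelial (AT2) cells that had been exposed to cockroach extract (CRE). The list held 35 of the 55450 genes in the count table and was put together by gene symbol from 8 roles: regulators, glutathione synthesis and transport, thioredoxin and peroxiredoxin, NADPH supply, heme and iron, peroxide and superoxide removal, carbonyl and epoxide detoxification, and 1 further target. All 35 were among the 20612 genes with enough counts to be tested. NRF2, the product of *Nfe2l2*, is a transcription factor that the adaptor KEAP1 hands over for degradation in unstressed cells. Oxidants and electrophiles modify KEAP1, after which NRF2 accumulates, pairs with a small MAF protein and binds antioxidant response elements. The aryl hydrocarbon receptor AhR is known from other work to act on *Nfe2l2* and on the shared target *Nqo1*.

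AT2 cells came from lungs of mice of the C57BL/6 strain at 6 to 8 weeks of age and were isolated by negative selection with antibodies to CD16/32, CD45, Ter119 and Sca-1, followed by panning on dishes coated with IgG. AhRfl/fl cells carry floxed AhR alleles and are called WT here, as in the sample names, and Sftpc-Cre;AhRfl/fl cells are called KO. Cells grown on collagen I received PBS or CRE at 50 µg/ml for 24 h, with 3 libraries in each of the 4 groups. Cre is made under *Sftpc*, a gene of AT2 cells that the paper says may not be unique to them. Cells would keep the floxed alleles only if neither they nor the cells they came from had made Cre. Recombination by cell type was not analysed here. Whether the 3 libraries of a group came from separate animals or cultures is not stated, and the p-values below measure the spread between libraries, which can be technical. Libraries held 68878065 to 80935797 counted fragments, so that 3 counts equalled 0.0365 to 0.0446 CPM, counts scaled to a common library size. A gene is said to have risen or fallen where edgeR's quasi-likelihood test gave a Benjamini-Hochberg adjusted p below 0.05 over all genes tested. Log2 fold changes are CRE over PBS or KO over WT.

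The loss of AhR was looked at first. *Ahr* stood at 42.9, 43.8 and 45.1 CPM with PBS and 56.2, 50.5 and 50.1 CPM with CRE in WT cells, and at 49.6, 40.2 and 45.7 CPM and 51.5, 37.7 and 49.5 CPM in KO cells. The groups overlapped, with log2 fold changes of 0.039 (adjusted p = 0.99) with PBS and -0.18 (adjusted p = 0.964) with CRE between genotypes. A deleted exon can leave most of a transcript in place, which a total per gene cannot show. *Cyp1b1*, a target of AhR, separated the genotypes in every library. *Cyp1b1* stood at 344, 404 and 404 CPM with PBS and 349, 465 and 460.0 CPM with CRE in WT cells, and at 59.0, 31.7 and 43.3 CPM and 63.9, 33.8 and 43.7 CPM in KO cells. It was lower in KO cells by a log2 fold change of -3.10 (SE 0.27) with PBS (adjusted p = 0.000879) and -3.17 (SE 0.27) with CRE (adjusted p = 0.000714). *Tiparp*, another target, was also lower in KO cells, at -0.98 (adjusted p = 0.0414) and -1.17 (adjusted p = 0.0117), but was not called when summed over treatments (adjusted p = 0.0954). *Cyp1a1* did not pass, at -1.67 (adjusted p = 0.193) and -1.38 (adjusted p = 0.454), nor did *Ahrr*, at -1.49 (adjusted p = 0.395) and -2.39 (adjusted p = 0.137). Both were lower in every KO library than in the WT libraries of the same treatment and passed the rule of the study, with *Ahrr* at 0.519 to 5.25 CPM over the 12 libraries.

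Markers showed AT2 cells in every library together with other cells. The 10 AT2 markers, of which *Sftpc* was the most abundant, summed to 8356, 8610.3 and 7641 CPM with PBS and 7322, 7371 and 6699 CPM with CRE in WT cells, and 4497, 6313 and 8734 CPM and 4683, 6397 and 9108 CPM in KO cells. KO libraries 1 and 2 lay below every WT library with the same treatment and KO library 3 lay above. None of the 10 differed between genotypes, and *Etv5* alone was lower with CRE averaged over genotypes (log2 fold change -0.47, adjusted p = 0.0185). Leukocyte markers, 6 genes led by *Laptm5*, summed to 346, 53.9 and 17.6 CPM with PBS and 291, 50.4 and 13.7 CPM with CRE in WT cells, and 255, 54.7 and 82.5 CPM and 243, 50.3 and 74.6 CPM in KO cells. The library numbered 1 was the highest in all 4 groups, so that these 4 libraries stand apart and results are also given without them, which leaves 2 libraries per group. AT1 markers, 6 genes led by *Ager*, summed to 909, 1081 and 1146 CPM with PBS and 563, 628 and 676 CPM with CRE in WT cells, and 841, 1265 and 979 CPM and 585, 868 and 688 CPM in KO cells. Of these, 2 fell with CRE averaged over genotypes, *Ager* by -0.83 (adjusted p = 0.0472) and *Rtkn2* by -1.28 (adjusted p = 0.0404). Fewer cells of a type and less RNA per cell cannot be told apart in these data. Whether such shifts in cell content carried any result below was not tested.

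Other cell types were present at several levels. Club cell markers, 4 genes with *Scgb1a1* the most abundant, summed to 4850.5, 5489 and 7754 CPM with PBS and 4109.7, 4119.6 and 6245 CPM with CRE in WT cells, and 8234, 5078 and 5003 CPM and 6849.9, 4751 and 4483 CPM in KO cells. The 4 ciliated cell markers led by *Foxj1* summed to 97.4, 103 and 134 CPM with PBS and 88.0, 94.6 and 131 CPM with CRE in WT cells, and 209, 127 and 130.3 CPM and 220.1, 137 and 134 CPM in KO cells. KO library 1 was the highest of its treatment for both lists, and ciliated sums of KO and WT libraries did not overlap with CRE. Among the 9 macrophage markers *Lyz2*, which AT2 cells express too, took most of 2989 to 5211 CPM, and without *Lyz2* the sums were 173, 62.3 and 46.6 CPM in WT cells with PBS and 127, 57.9 and 48.8 CPM in KO cells with PBS, again highest in the libraries numbered 1. Neutrophil markers (4 genes, *S100a9* the most abundant) summed to 1.49 to 31.2 CPM, erythroid markers (5 genes, *Hba-a1*) to 0.929 to 2.59 CPM, fibroblast markers (5 genes, *Col1a1*) to 71.8 to 265 CPM and endothelial markers (4 genes, *Pecam1*) to 31.5 to 71.6 CPM. None of these genes was called in any of the 5 comparisons of groups by the fit without a block. Within library numbers, however, the club cell sum was lower with CRE than with PBS every time in both genotypes. Among macrophage markers *Adgre1* was higher and *Siglecf* lower with CRE in the same way. Whether these shifts bear on the results below was not tested. None of the listed markers was at 0 in every library.

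Resting levels spread widely between the roles. On the authors' FPKM scale, which corrects for gene length, iron storage stood highest: *Ftl1*, the ferritin light chain, had 3304 ± 166 FPKM (mean ± SD, n = 3) in WT cells with PBS and ranked first in all 4 groups. *Txn1*, with 522 ± 1.07 FPKM, was the most abundant of the thioredoxin system, and *Taldo1* and *Esd* led NADPH supply and carbonyl detoxification at 356 ± 32.6 and 376 ± 23.6 FPKM. *Gclc*, the catalytic subunit of glutamate-cysteine ligase, had 175 ± 5.30 FPKM, more than the other genes of glutathione synthesis and transport. *Nfe2l2* stood at 101 ± 6.53 FPKM and *Keap1* at 15.6 ± 2.12 FPKM, and the glutathione conjugate exporter *Abcc1* was lowest of the 35 at 6.50 ± 2.03 FPKM. *Akr1b8* moved from rank 7 with PBS to rank 3 with CRE in WT cells and from rank 7 to rank 4 in KO cells. Together the 35 genes took 2.12, 2.18 and 2.01% of all counts in WT cells with PBS and 2.79, 2.76 and 2.54% with CRE, against 1.73, 1.75 and 1.81% and 2.37, 2.47 and 2.50% in KO cells. The shares of the PBS and CRE libraries did not overlap in either genotype.

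In WT cells CRE raised *Slc7a11*, a chain of the cystine carrier, both subunits of glutamate-cysteine ligase and glutathione reductase. It also raised *Akr1b8*, an aldo-keto reductase that clears lipid aldehydes. Of the 35 genes 5 rose and 0 fell, where 0.218% of the 20612 genes tested rose. They were *Slc7a11* (2.78-fold), *Gclc* (2.36-fold), *Gclm* (1.74-fold), *Gsr* (1.32-fold) and *Akr1b8* (1.94-fold). The median log2 fold change was 0.37 over the 35 genes, of which 33 had positive values, and -0.0012 over all genes tested. An unadjusted p under 0.05 was found for 22 of the 35 and for 1929 of all genes. The rule of the study (unadjusted p under 0.05 in limma-trend and a log2 fold change beyond 0.5) took 10 as higher and 1, *Gpx1*, as lower, with 2.4% of all genes higher. All 3 CRE libraries exceeded all 3 PBS libraries for 21 of the 35 and for 8.82% of all genes. Libraries of the same number resembled each other across treatments, and with the number as a block 22 of the 35 were called, 21 higher and 1 lower, and 748 of all genes in either direction.

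Among the calls in WT cells *Gclc* was the steadiest, with adjusted p from 0.00421 to 0.0359 over the 6 fits that left out 1 library and 0.0362 without the libraries numbered 1. *Slc7a11* lost its call whichever library was left out (adjusted p 0.0519 to 0.157), as did *Gsr* (0.0559 to 0.111). *Gclm* kept its call only without WT PBS 2 and had 0.0914 to 0.163 in the other 5 fits. *Akr1b8* kept its call only without WT CRE 1, with 0.0849 to 0.124 in the other 5. Without the libraries numbered 1 *Akr1b8* remained (adjusted p = 0.0452), whereas *Slc7a11* (0.175), *Gclm* (0.246) and *Gsr* (0.18) did not. Their log2 fold changes were then 1.59, 0.74 and 0.37, beside 1.48, 0.80 and 0.41 with all libraries. A fit of the 6 WT libraries alone called 3 of the 5, *Slc7a11*, *Gclc* and *Akr1b8*, and left *Gclm* at 0.111 and *Gsr* at 0.0725. None of these fits took the library number as a block. All libraries with that block gave adjusted p = 0.00173 for *Slc7a11*, 0.000645 for *Gclc*, 0.0117 for *Gclm*, 0.00561 for *Gsr* and 0.00188 for *Akr1b8*.

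In KO cells CRE raised both subunits of glutamate-cysteine ligase, glutathione reductase and *Akr1b8*. *Pgd*, which makes NADPH in the pentose phosphate pathway, and *Blvrb*, which reduces biliverdin, rose as well. Of the 35 genes 6 rose and 0 fell, where 0.228% of all genes tested rose: *Gclc* (2.12-fold), *Gclm* (2.14-fold), *Gsr* (1.36-fold), *Pgd* (1.56-fold), *Blvrb* (1.93-fold) and *Akr1b8* (2.15-fold). The median log2 fold change was 0.44 over the 35, 34 of them positive, and -0.0027 over all genes. An unadjusted p under 0.05 was found for 27 of the 35 and for 1336 of all genes, and the rule of the study took 14 of the 35 and 1.84% of all genes as higher. CRE libraries exceeded PBS libraries without overlap for 25 of the 35 and 6.49% of all genes. With the library number as a block 18 were called, all higher, and 439 of all genes in either direction. *Slc7a11* was not called in KO cells (adjusted p = 0.0797, 0.00265 with the block), and its interaction of genotype and CRE was -0.29 (SE 0.32) with adjusted p = 1. *Pgd* and *Blvrb* were not called in WT cells (adjusted p = 0.0789 for each, 0.00225 and 0.00376 with the block), with interactions of 0.089 (SE 0.15) and 0.27 (SE 0.18).

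*Gclc* and *Gclm* kept their calls in KO cells in all 6 fits that left out 1 library, at adjusted p up to 0.0422 for each. *Gsr* and *Akr1b8* lost theirs only without KO PBS 2, at 0.0576 and 0.061. Among these fits *Pgd* was called only without KO CRE 1 and had 0.0563 to 0.155 in the other 5 fits. *Blvrb* had 0.0537 to 0.0677 without KO PBS 1, KO PBS 3, KO CRE 2 or KO CRE 3. When the libraries numbered 1 were left out, *Blvrb* (0.0465) and *Akr1b8* (0.0297) stayed below 0.05, and *Gclc* (0.0646), *Gclm* (0.139), *Gsr* (0.115) and *Pgd* (0.132) did not, with log2 fold changes of 1.12, 0.97, 0.45 and 0.65. That fit also called *Prdx1* and *Prdx6*, and the fit without KO CRE 1 also called *Gss*, *Prdx6* and *Tkt*. A fit of the 6 KO libraries alone called 0 of the 35, with *Gclm* closest at 0.0522 and *Gsr* furthest at 0.139 among the 6, and 13 of all genes. These fits also had no block. All libraries with the block gave adjusted p = 0.00085 for *Gclc*, 0.00416 for *Gclm*, 0.00466 for *Gsr*, 0.00192 for *Pgd*, 0.00211 for *Blvrb* and 0.00178 for *Akr1b8*.

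Most log2 fold changes with CRE had the same sign in the genotypes, whose libraries are separate in these comparisons. Of the 35 genes 32 had positive log2 fold changes in both genotypes, where 28.9% of all genes did, and over the 35 genes the values correlated with r = 0.784, against 0.134 over all genes. Of the 20612 genes tested 11476 averaged at least 5 CPM, and the rest had lower counts than the 35. Neither these values nor the other shares of all genes were matched for expression level. For 18 genes all CRE libraries exceeded all PBS libraries in both genotypes, as did 1.76% of all genes: *Nfe2l2*, *Slc7a11*, *Gclc*, *Gclm*, *Gss*, *Gsr*, *Abcc1*, *Txn1*, *Prdx6*, *Pgd*, *Taldo1*, *Tkt*, *Hmox1*, *Blvrb*, *Cat*, *Akr1b8*, *Cbr3* and *Ephx1*. Averaged over the genotypes, CRE raised 15 of the 35 and 0.864% of all genes, and lowered 0. This average of the 12 libraries added *Nfe2l2*, *Gss*, *Prdx6*, *Taldo1*, *Tkt*, *Cat*, *Cbr3* and *Ephx1* to the genes called in at least 1 genotype. The rule of the study took 12 of the 35 and 828 of all genes in either direction. Among the 15 it left out *Nfe2l2*, *Gsr*, *Prdx6*, *Taldo1*, *Tkt*, *Cat* and *Ephx1*, and it added *Abcc1*, *Hmox1*, *Fth1* and *Gpx2*. By edgeR the median log2 fold change averaged over genotypes was 0.39 over the 35 and -0.0021 over all genes. In that test 30 of the 35 and 2287 of all genes had an unadjusted p under 0.05. With the library number as a block 26 of the 35 were called, all higher, and 1358 of all genes in either direction. These added *Mafg*, *Abcc1*, *Txn1*, *Prdx1*, *Me1*, *G6pdx*, *Hmox1*, *Ftl1*, *Sod1*, *Cbr1* and *Esd*. In each of the 12 fits that left out 1 library calls held for *Slc7a11*, *Gclc*, *Gclm*, *Gss*, *Gsr*, *Prdx6*, *Pgd*, *Tkt*, *Blvrb* and *Akr1b8*. Single fits of these 12 also called *Abcc1* and *Hmox1* (without WT PBS 1), *Srxn1* (without WT CRE 3), *Mafg* (without KO PBS 3) and *Txn1* (without KO CRE 1). Without the libraries numbered 1 *Cat*, *Cbr3* and *Ephx1* were lost and *Prdx1* was added. The log2 fold changes of *Cat*, *Cbr3* and *Ephx1* were then 0.38, 0.78 and 0.37, beside 0.37, 0.72 and 0.37 with all libraries.

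**Figure D1:**
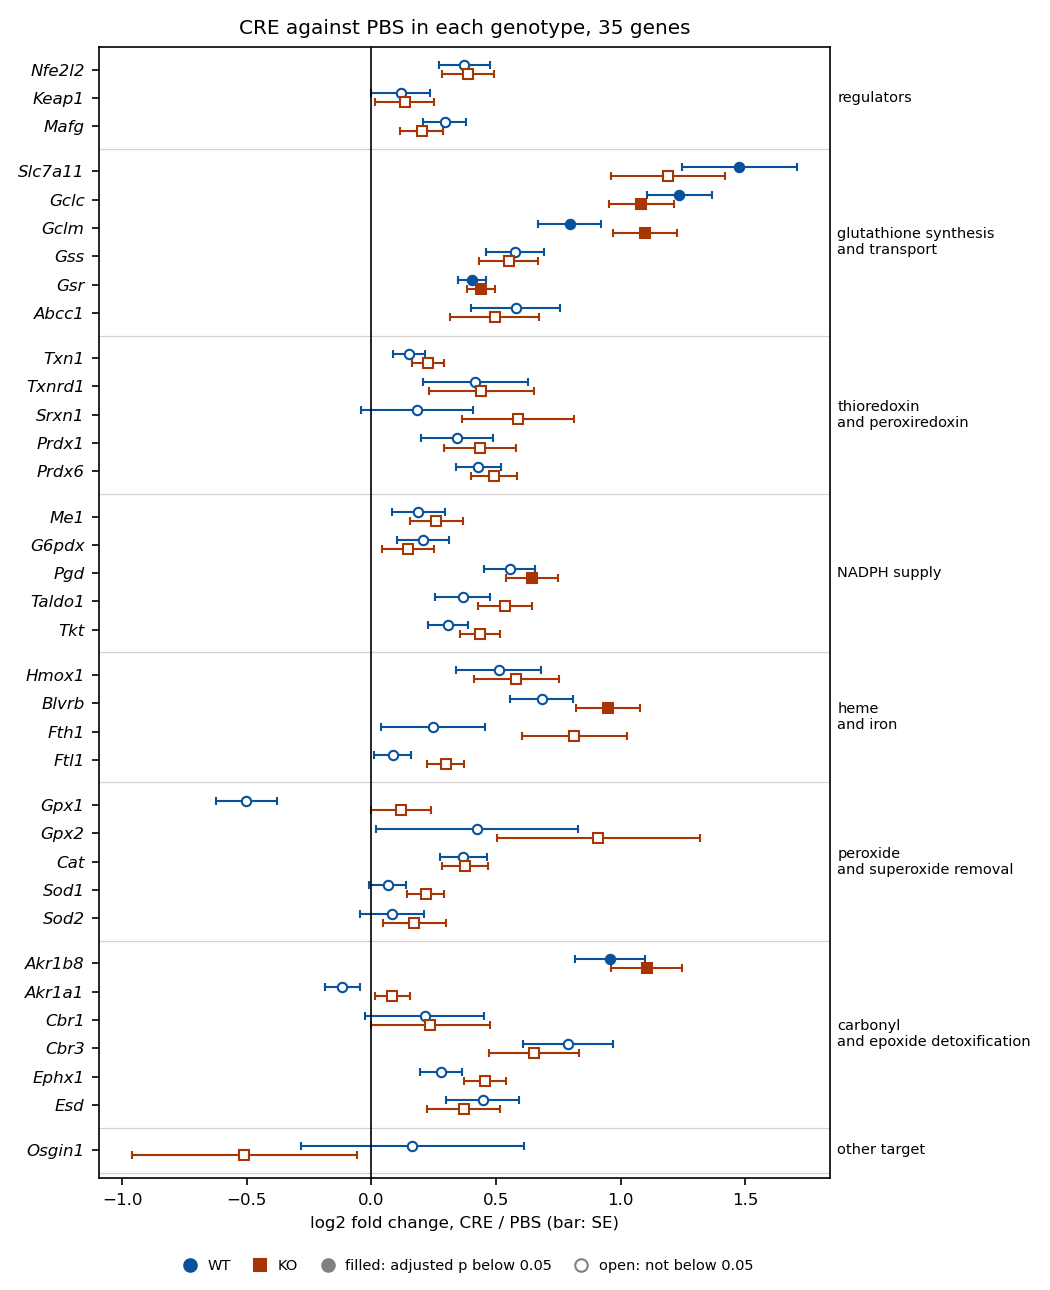
Log2 fold change of CRE over PBS for each of the 35 genes, grouped by role, in WT cells (circles) and KO cells (squares), n = 3 libraries per group. Bars show the standard error and filled symbols an adjusted p below 0.05, with *Slc7a11* the largest value in both genotypes (1.48 and 1.19).

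Regulators of the pathway had smaller log2 fold changes with CRE than the glutathione genes that were called. The values of *Nfe2l2* were close to those of *Gsr*, at 0.41 in WT and 0.44 in KO cells. No test compared genes with each other. *Nfe2l2* stood at 388, 456 and 442 CPM with PBS and 467, 613 and 584 CPM with CRE in WT cells, and at 309.9, 323 and 316 CPM and 382, 432 and 426 CPM in KO cells. Every CRE library lay above the PBS libraries of its genotype, and every KO library lay below the WT libraries of the same treatment. The log2 fold change with CRE was 0.37 (SE 0.10) in WT cells (adjusted p = 0.243) and 0.39 (SE 0.10) in KO cells (adjusted p = 0.305), and the block brought these to 0.0118 and 0.0109. Averaged over genotypes *Nfe2l2* rose by 0.38 (adjusted p = 0.036), a call that held only without WT CRE 1 or KO CRE 1 among the fits without 1 library (0.0662 to 0.104 in the other 10) and was lost with no filter (0.0526) but kept without the libraries numbered 1 (0.011, log2 fold change 0.42). *Keap1* stood at 72.8, 96.6 and 78.1 CPM with PBS and 93.0, 93.2 and 82.2 CPM with CRE in WT cells, and at 68.1, 79.1 and 80.96 CPM and 75.2, 91.8 and 83.2 CPM in KO cells. Its 4 groups overlapped, with adjusted p = 0.863 in WT and 1 in KO cells. *Mafg*, a small MAF partner of NRF2, lay between 112 and 164 CPM, with log2 fold changes of 0.29 and 0.20 that were not called (adjusted p 0.0256 and 0.0931 with the block).

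Glutathione synthesis and transport held the gene with the largest log2 fold change. *Slc7a11* stood at 186, 140.3 and 130.4 CPM with PBS and 455, 458 and 358 CPM with CRE in WT cells, and at 155, 91.8 and 156 CPM and 307, 241 and 371 CPM in KO cells. This gene encodes the cystine carrier of system xc, and CRE and PBS libraries were far apart in both genotypes, with log2 fold changes of 1.48 (SE 0.23, adjusted p = 0.0299) and 1.19 (SE 0.23). *Gclc* was at 707, 776 and 735 CPM with PBS and 1531, 1948 and 1745 CPM with CRE in WT cells, and at 608, 558 and 725 CPM and 1199, 1256 and 1553 CPM in KO cells. For this rate-limiting subunit the lowest CRE library was above the highest PBS library of either genotype, and CRE shifted it by 1.24 (SE 0.13, adjusted p = 0.00382) in WT and 1.08 (SE 0.13, adjusted p = 0.00814) in KO cells. *Gclm* stood at 114, 145 and 105 CPM with PBS and 214, 212 and 205 CPM with CRE in WT cells, and at 92.3, 88.9 and 103 CPM and 229, 174 and 204 CPM in KO cells. This modifier subunit rose by 0.80 (SE 0.13, adjusted p = 0.0353) and 1.10 (SE 0.13, adjusted p = 0.00694), again without overlap. *Gss* was found at 107, 117 and 106 CPM with PBS and 168, 153 and 171 CPM with CRE in WT cells, and at 85.9, 86.0 and 88.4 CPM and 105, 121 and 155 CPM in KO cells. Glutathione synthase was higher with CRE in every library of its genotype but called only on average, at 0.56 (SE 0.083, adjusted p = 0.00891), with 0.112 in WT cells (0.035 with the block) and 0.127 in KO cells (0.0558).

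Glutathione reductase, which returns the oxidized form, varied little between libraries. *Gsr* stood at 172, 178 and 174 CPM with PBS and 239, 228 and 227 CPM with CRE in WT cells, and at 155, 156 and 162 CPM and 206, 207 and 228 CPM in KO cells. The treatments did not overlap, and *Gsr* rose by 0.41 (SE 0.056, adjusted p = 0.0187) in WT and 0.44 (SE 0.056, adjusted p = 0.00916) in KO cells, with little spread within groups. *Abcc1* stood at 144, 81.4 and 103 CPM with PBS and 184, 156 and 151 CPM with CRE in WT cells, and at 116, 114 and 91.4 CPM and 158, 149 and 147 CPM in KO cells. CRE libraries of this exporter were above the PBS libraries in both genotypes, yet the PBS values of WT cells were scattered and neither log2 fold change, 0.58 (adjusted p = 0.315) nor 0.49 (adjusted p = 0.633), was called. The block gave *Abcc1* an adjusted p of 0.0381 in WT and 0.0867 in KO cells.

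Genes of the thioredoxin system, which reduces disulfides and peroxides beside glutathione, had positive log2 fold changes with CRE in both genotypes, and with all libraries and no block only *Prdx6* was called by edgeR. *Prdx6* stood at 679.8, 759 and 682 CPM with PBS and 945, 996 and 916 CPM with CRE in WT cells, and at 686, 663 and 655 CPM and 803, 1013 and 1002 CPM in KO cells. CRE libraries exceeded PBS libraries in both genotypes, and the average rose by 0.46 (SE 0.065, adjusted p = 0.00689), with 0.123 in WT cells and 0.0732 in KO cells alone (0.0332 and 0.0274 with the block). *Srxn1* stood at 563, 603 and 569.7 CPM with PBS and 754, 829 and 386 CPM with CRE in WT cells, and at 395, 399 and 487 CPM and 579, 637 and 709.7 CPM in KO cells. WT CRE 3 lay below every WT library with PBS, so that sulfiredoxin, which repairs overoxidized peroxiredoxins, had a log2 fold change of 0.18 (SE 0.22) in WT cells against 0.59 (SE 0.22) in KO cells, where the treatments did not overlap. The difference between these, 0.41 (SE 0.32) with adjusted p = 1, was not called. On average *Srxn1* was not called with all libraries (adjusted p = 0.389) but was called without WT CRE 3. *Txn1* lay at 552 to 700.3 CPM over the 12 libraries, with CRE above PBS in both genotypes and log2 fold changes of 0.15 and 0.23. *Txnrd1* ranged over 593 to 1193 CPM, with 1 high CRE library in each genotype, and *Prdx1* over 1128 to 2169 CPM. Neither was called, at adjusted p = 0.59 and 0.807 for *Txnrd1* and 0.495 and 0.541 for *Prdx1*, which had 0.0193 and 0.00906 with the block and was called without the libraries numbered 1 in KO cells and on average.

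NADPH feeds both reductases, and *Pgd*, *Taldo1* and *Tkt* of the pentose phosphate pathway were called with CRE in KO cells or on average, while *G6pdx* was not. *Pgd* stood at 1117, 1249 and 1067 CPM with PBS and 1519, 1877 and 1648 CPM with CRE in WT cells, and at 919.8, 939 and 1071 CPM and 1403, 1536 and 1640.1 CPM in KO cells. For 6-phosphogluconate dehydrogenase the treatments were apart in both genotypes, at 0.56 (SE 0.10, adjusted p = 0.0789) in WT and 0.64 (SE 0.10, adjusted p = 0.0315) in KO cells. *Taldo1* stood at 803, 973 and 828 CPM with PBS and 1013, 1200.5 and 1143 CPM with CRE in WT cells, and at 620.1, 691 and 732 CPM and 867, 1059 and 1037 CPM in KO cells. Transaldolase did not overlap between treatments either and rose on average by 0.45 (SE 0.078, adjusted p = 0.0206), a call lost at 0.0505 to 0.0716 without WT PBS 3, WT CRE 2, WT CRE 3, KO PBS 1, KO PBS 2 or KO CRE 3. Alone the genotypes gave 0.298 and 0.105 (0.00982 and 0.00272 with the block). *Tkt* stood at 393, 425 and 375 CPM with PBS and 462, 530.1 and 486 CPM with CRE in WT cells, and at 326, 338 and 351 CPM and 417, 465 and 490.3 CPM in KO cells. Transketolase showed the same order of groups and rose on average by 0.37 (SE 0.057, adjusted p = 0.011), with 0.217 and 0.0732 in WT and KO cells (0.017 and 0.00572 with the block). The 2 other genes listed under NADPH supply were not called by the fit without a block. Malic enzyme *Me1* lay at 426 to 668 CPM, with log2 fold changes of 0.19 and 0.26 (adjusted p 0.0284 and 0.0111 with the block). *G6pdx* lay at 102 to 157 CPM, with log2 fold changes of 0.21 and 0.15.

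Heme breakdown and iron storage gave a mixed picture. *Hmox1* stood at 449.7, 333 and 332 CPM with PBS and 666, 469 and 454 CPM with CRE in WT cells, and at 287, 286 and 352 CPM and 461, 417 and 506 CPM in KO cells. Heme oxygenase 1 was higher with CRE in both genotypes without overlap, and library 1 was the highest WT library with either treatment. With that spread between libraries it was not called, at 0.51 (SE 0.17, adjusted p = 0.366) and 0.58 (SE 0.17, adjusted p = 0.409), whereas the block gave 0.00346 and 0.00255. *Blvrb* stood at 54.8, 62.2 and 52.0 CPM with PBS and 84.6, 100.2 and 86.7 CPM with CRE in WT cells, and at 39.3, 47.3 and 42.2 CPM and 67.8, 92.8 and 88.2 CPM in KO cells. Treatments were well apart for biliverdin reductase B, at 0.68 (SE 0.13, adjusted p = 0.0789) in WT and 0.95 (SE 0.13, adjusted p = 0.0126) in KO cells. *Fth1* stood at 2781, 2522 and 2227 CPM with PBS and 4103, 2393 and 2450.0 CPM with CRE in WT cells, and at 1374, 1534 and 1771 CPM and 2856, 3139.8 and 2226 CPM in KO cells. WT CRE 1 stood alone among WT libraries, while in KO cells the ferritin heavy chain was higher in every CRE library, and the log2 fold changes were 0.25 (SE 0.21) and 0.81 (SE 0.21, adjusted p = 0.803 and 0.286), with an interaction of 0.57 (SE 0.30, adjusted p = 1). *Ftl1* stood at 4706, 5329.9 and 4871 CPM with PBS and 5109.6, 5595 and 5121 CPM with CRE in WT cells, and at 4022, 4124 and 4072 CPM and 4988, 4754 and 5277 CPM in KO cells. The ferritin light chain overlapped between treatments in WT cells and not in KO cells, at 0.086 (SE 0.074) and 0.30 (SE 0.074, adjusted p = 0.813 and 0.261, 0.224 and 0.00926 with the block).

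Among the 5 genes of peroxide and superoxide removal only *Cat* was called with CRE. *Gpx1* stood at 197, 215 and 214 CPM with PBS and 155, 171 and 116 CPM with CRE in WT cells, and at 148, 166 and 160.3 CPM and 159, 179 and 177 CPM in KO cells. In WT cells every CRE library of this glutathione peroxidase lay below every PBS library. This was the only such case among the 35, beside 1579 of all 20612 genes tested. Its KO libraries overlapped. The log2 fold changes were -0.50 (SE 0.12, adjusted p = 0.185, 0.0484 with the block) and 0.12 (SE 0.12, adjusted p = 1, 0.702), and the interaction of 0.62 (SE 0.17) had an unadjusted p of 0.0044 and an adjusted p of 1. *Cat* stood at 366, 431 and 373 CPM with PBS and 473, 538 and 500.3 CPM with CRE in WT cells, and at 286, 322 and 328 CPM and 365, 418 and 430.5 CPM in KO cells. Catalase separated by treatment and by genotype and rose with CRE on average by 0.37 (SE 0.066, adjusted p = 0.024). The call was lost at 0.0526 to 0.0799 without WT PBS 1, WT PBS 3, WT CRE 2, WT CRE 3, KO PBS 1, KO PBS 2 or KO CRE 3 and at 0.054 without the libraries numbered 1, and each genotype alone gave 0.197 and 0.25 (0.00376 and 0.00416 with the block). *Gpx2* stood at 127, 186 and 152 CPM with PBS and 161, 211 and 253 CPM with CRE in WT cells, and at 298, 108 and 127 CPM and 401, 424 and 176 CPM in KO cells. Single libraries of KO cells differed more than 2-fold within a group, and neither 0.42 (SE 0.40) nor 0.91 (SE 0.41) was called (adjusted p = 0.853 and 0.768). *Sod1* at 329 to 453 CPM and *Sod2* at 84.4 to 136 CPM had log2 fold changes of 0.065 and 0.083 in WT cells and 0.22 and 0.17 in KO cells, none called, with 0.026 for *Sod1* in KO cells with the block.

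Carbonyl and epoxide detoxification was led by *Akr1b8*. *Akr1b8* stood at 470.4, 549 and 515 CPM with PBS and 851, 1103 and 1025 CPM with CRE in WT cells, and at 397, 377 and 474 CPM and 739, 905 and 1040.4 CPM in KO cells. The lowest CRE library was above the highest PBS library of both genotypes, at 0.96 (SE 0.14, adjusted p = 0.0245) in WT and 1.11 (SE 0.14, adjusted p = 0.00921) in KO cells. *Cbr3* stood at 66.6, 63.7 and 74.0 CPM with PBS and 124, 92.5 and 136 CPM with CRE in WT cells, and at 57.3, 36.4 and 56.8 CPM and 71.3, 79.8 and 85.2 CPM in KO cells. Carbonyl reductase 3 was higher with CRE and lower in KO cells without overlap in each case, and it rose with CRE on average by 0.72 (SE 0.13, adjusted p = 0.0247). Its call was lost at 0.0518 to 0.0785 without any 1 of the WT PBS libraries, WT CRE 1, WT CRE 3, KO CRE 2 or KO CRE 3 and at 0.158 without the libraries numbered 1, and the genotypes alone gave 0.165 and 0.352 (0.0435 and 0.0868 with the block). *Ephx1* stood at 224, 256 and 224 CPM with PBS and 260.2, 312 and 282 CPM with CRE in WT cells, and at 176, 201 and 185 CPM and 248, 269 and 254 CPM in KO cells. Microsomal epoxide hydrolase likewise did not overlap between treatments and rose on average by 0.37 (SE 0.060, adjusted p = 0.0162), lost without WT PBS 3 (0.0576) and without the libraries numbered 1 (0.0877), with 0.315 and 0.0748 in the genotypes alone (0.017 and 0.00322 with the block).

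Other carbonyl genes were not called with CRE. *Akr1a1* stood at 513, 590.2 and 539 CPM with PBS and 486, 521 and 508 CPM with CRE in WT cells, and at 447, 505 and 466 CPM and 490.2, 514 and 499 CPM in KO cells. This aldehyde reductase had negative and positive log2 fold changes, -0.12 (SE 0.070) in WT and 0.084 (SE 0.070) in KO cells, and PBS and CRE libraries overlapped in both genotypes. *Esd*, S-formylglutathione hydrolase, lay at 1162 to 2201 CPM, with 0.45 and 0.37 (adjusted p = 0.353 and 0.696, 0.0284 and 0.0603 with the block), and *Cbr1* at 32.9 to 63.7 CPM, with 0.21 and 0.24. *Osgin1* stood at 62.1, 92.3 and 194 CPM with PBS and 151, 70.4 and 169 CPM with CRE in WT cells, and at 68.1, 133 and 64.4 CPM and 62.6, 49.3 and 74.7 CPM in KO cells. Libraries of this stress-induced growth inhibitor overlapped in every comparison, and the log2 fold changes of 0.16 (SE 0.45) and -0.51 (SE 0.45) had the widest standard errors of the 35.

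**Figure D2:**
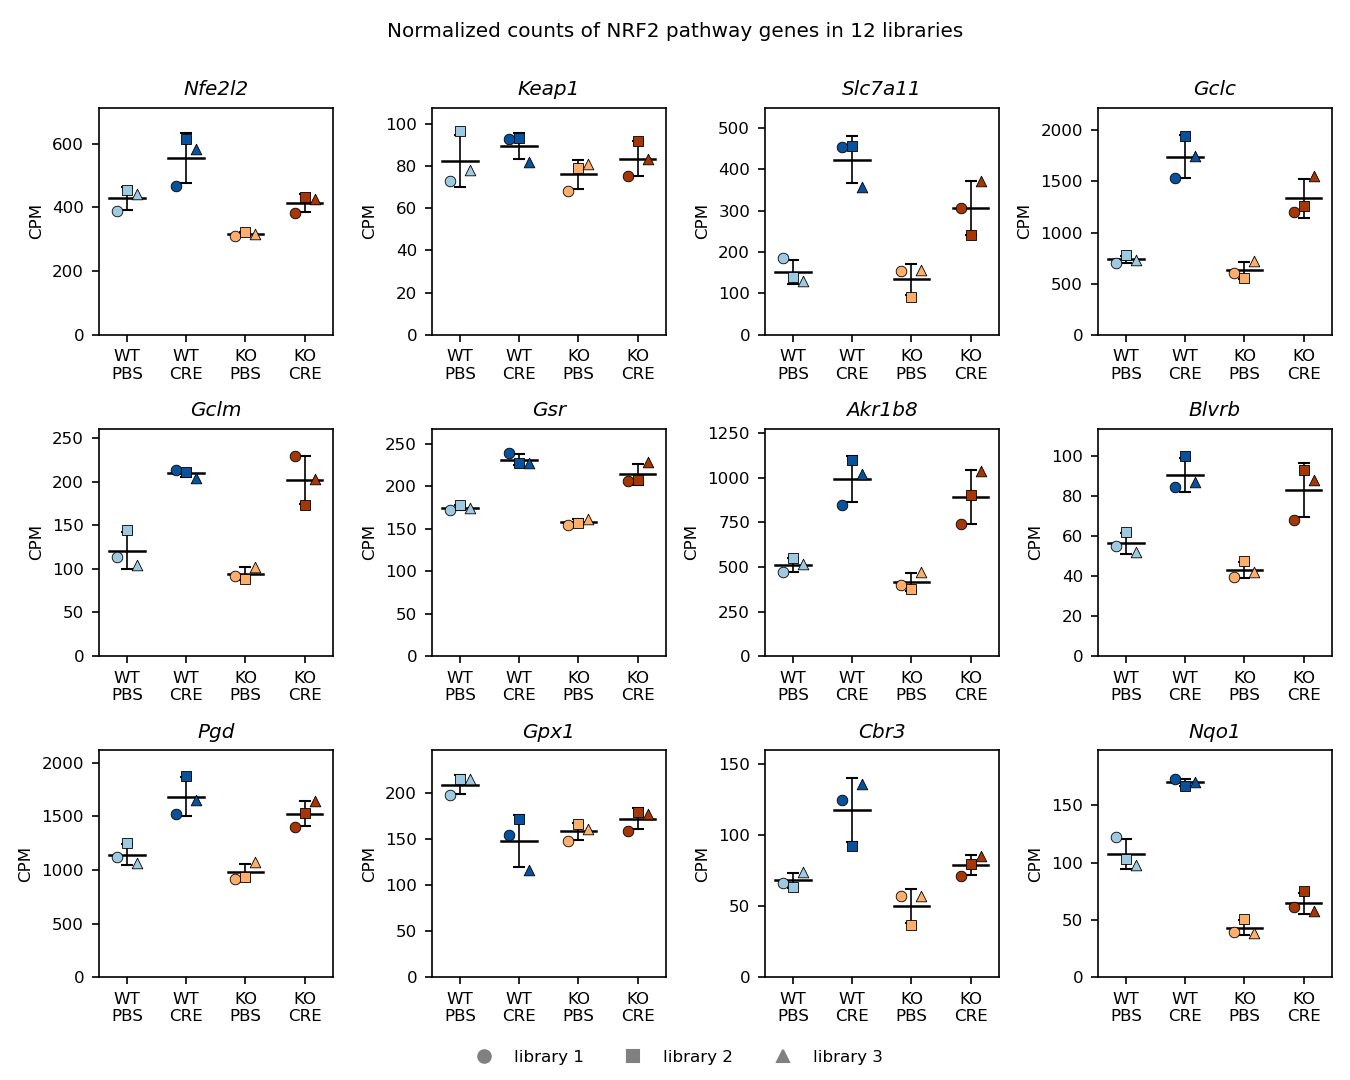
CPM of 12 genes in each library, by group (WT and KO with PBS or CRE), with circles, squares and triangles for libraries 1, 2 and 3, lines for means and bars for SD (n = 3). *Gclc* reads 707, 776 and 735 CPM in WT cells with PBS and 1531, 1948 and 1745 CPM with CRE, and *Nqo1* is lower in every KO library than in any WT library.

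Between genotypes in PBS the whole list leaned toward lower levels in KO cells, by small amounts. No gene passed the test, while 34 of the 35 had negative log2 fold changes. By edgeR without a block 0 of the 35 were called, where 0.102% of all genes were lower in KO cells. The block called 2, *Nfe2l2* (adjusted p = 0.0373) and *Ephx1* (0.0356), and 71 of all genes in either direction. DESeq2 called 2, *Nfe2l2* and *Ftl1*, and 243 of all genes in either direction, limma-trend with Benjamini-Hochberg adjustment 0, and the rule of the study took 1, *Fth1*, as lower, with 1.76% of all genes. An unadjusted p under 0.05 was found for 18 of the 35 and 1725 of all genes. The median was -0.23 over the 35 and -0.0010 over all genes. All KO libraries lay below all WT libraries for 18 of the 35 and 7.38% of all genes. *Nfe2l2* had -0.44 (SE 0.10, adjusted p = 0.212, 0.0118 to 0.7 over its alternatives), *Fth1* -0.69 (SE 0.21) (0.413), *Ftl1* -0.29 (SE 0.074) (0.288) and *Ephx1* -0.32 (SE 0.085) (0.307). Summed AT2 markers were also low in KO PBS 1 and 2 and club and ciliated markers high in KO PBS 1, as given above, and a link between these was not tested.

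In CRE-treated cells most of the 35 genes again had lower levels in KO than in WT cells, by small amounts. No gene of the list was called, 32 of 35 log2 fold changes were negative, and the median was -0.13 against -0.0034 over all genes. By edgeR without a block 0 of the 35 were lower, beside 0.112% of all genes. The block called 1, *Nfe2l2* (adjusted p = 0.0487), and 55 of all genes in either direction. DESeq2 called 1, *Nfe2l2*, and 174 of all genes in either direction, limma-trend with Benjamini-Hochberg adjustment called 0, and the rule of the study took 2, *Cbr3* and *Osgin1*, as lower, with 1.7% of all genes. 7 of the 35 and 1227 of all genes had an unadjusted p under 0.05. *Nfe2l2*, *G6pdx*, *Cat* and *Cbr3* were the 4 genes with every KO library below every WT library, a pattern of 5.43% of all genes. *Nfe2l2* had -0.42 (SE 0.10, adjusted p = 0.333, 0.0228 to 0.853 over its alternatives), *Cat* -0.32 (SE 0.093) (0.557), *Cbr3* -0.58 (SE 0.18) (0.632) and *Osgin1* -1.07 (SE 0.45) (0.827). With both treatments 3 genes, *Nfe2l2*, *Cat* and *Cbr3*, lay lower in KO cells without overlap, as did 1.18% of all genes. Comparisons of genotype and of CRE share libraries, so a low WT value with PBS would enter both.

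When the PBS and CRE libraries of the same number were summed, giving 3 totals per genotype, edgeR called 0 of the 35, with 0.0568% of all 21118 genes tested lower in KO cells. The median log2 fold change was -0.19 over the 35 and -0.0090 over all genes, and 10 of the 35 and 1102 of all genes had an unadjusted p under 0.05. DESeq2 called 2, *Nfe2l2* and *Cbr3*, and 205 of all genes, limma-trend with Benjamini-Hochberg adjustment called 0, and the rule of the study took 1, *Cbr3*, and 640 of all genes in either direction. *Nfe2l2* stood at -0.44 (SE 0.096, adjusted p = 0.48) and *Cbr3* at -0.54 (SE 0.13, adjusted p = 0.54). On these sums the block called 0 of the 35 and 0 of all genes, with *Nfe2l2* at 0.459. A fit that took the 12 libraries as separate lowered the adjusted p of *Nfe2l2* to 0.0272 and called 130 of all genes, but paired libraries of a number may come from the same cells.

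**Figure D3:**
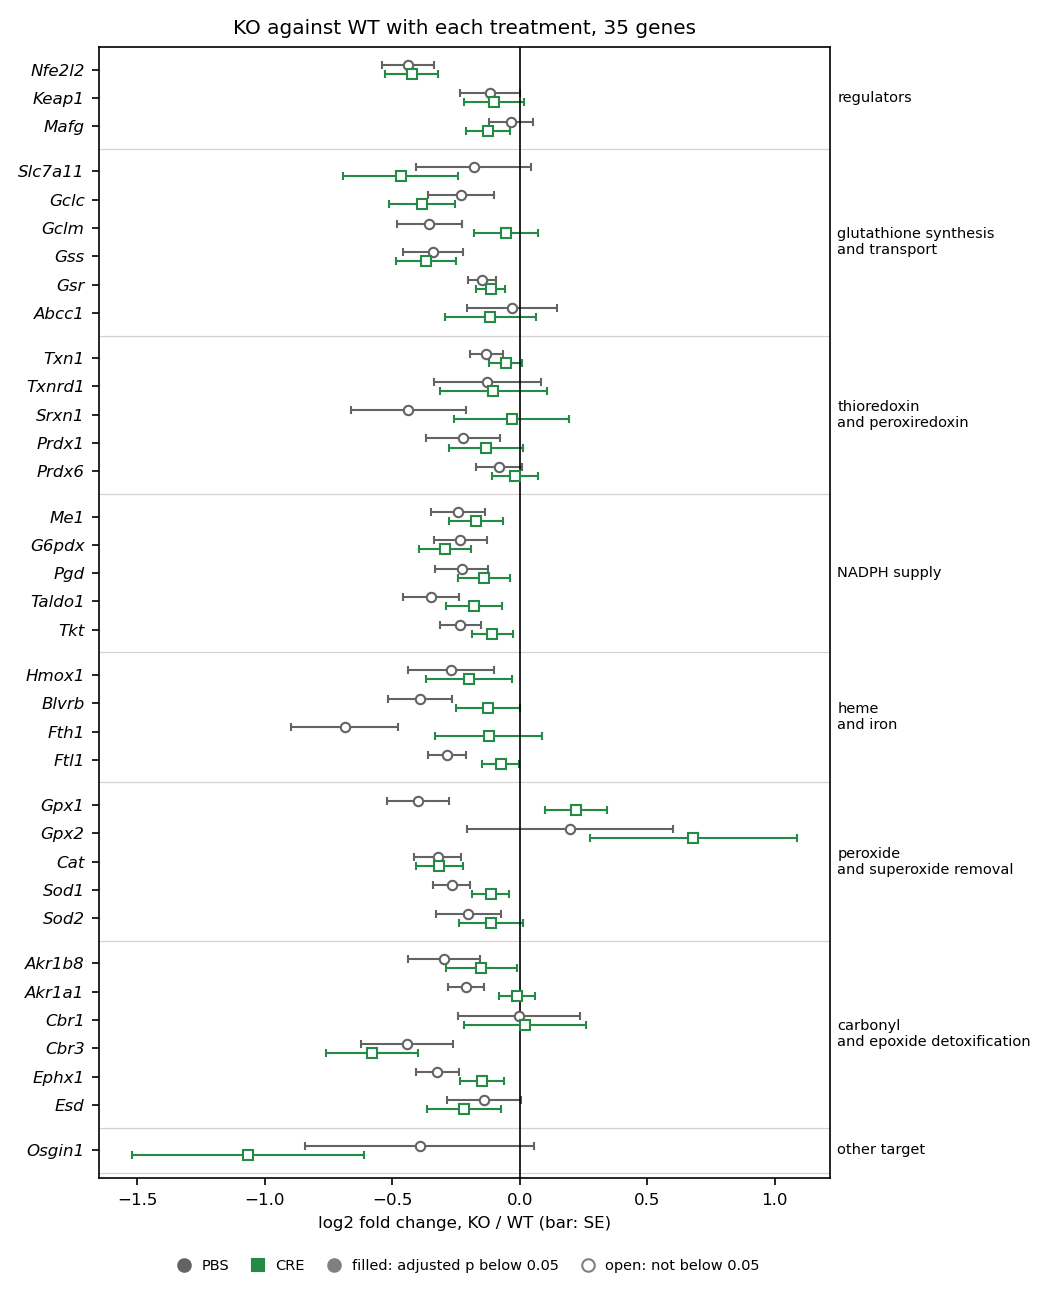
Log2 fold change of KO over WT for each of the 35 genes, grouped by role, with PBS (circles) and CRE (squares), n = 3 libraries per group. Bars show the standard error. All symbols are open because no gene had an adjusted p below 0.05 in the fit without a block, with *Nfe2l2* at -0.44 and -0.42.

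No gene of the list responded to CRE in a way that differed by genotype after adjustment. The interaction called 0 of the 35 and 0% of all genes, and 1 of the 35, *Gpx1*, had an unadjusted p under 0.05, with 763 of all genes. DESeq2 called 0 and 23 of all genes, limma-trend with Benjamini-Hochberg adjustment called 0, and the rule of the study took 1, *Gpx1*, and 475 of all genes. The median interaction was 0.073 over the 35 and 0.0052 over all genes. For those of the 35 called with CRE in both genotypes it was -0.15 (SE 0.18) for *Gclc*, 0.30 (SE 0.18) for *Gclm*, 0.15 (SE 0.20) for *Akr1b8* and 0.035 (SE 0.080) for *Gsr*, and for *Slc7a11*, called in WT cells, -0.29 (SE 0.32).

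A wider list of 47 further genes tied to the same pathway was followed beside the 35. CRE raised 2 of them in WT cells, *Idh1* and *Abcc3*, and 2 in KO cells, *Idh1* and *Akr1b3*. Of all genes tested 0.218% and 0.228% rose. Medians over the list were 0.0046 and 0.019. Averaged over genotypes 6 rose, where 0.864% of all genes did: *Nqo1*, *Idh1*, *Akr1b3*, *Abcc3*, *Abcc4* and *Ugdh*. *Idh1* stood at 64.6, 65.3 and 57.4 CPM with PBS and 88.8, 95.0 and 86.3 CPM with CRE in WT cells, and at 60.1, 61.1 and 57.1 CPM and 78.0, 88.8 and 81.4 CPM in KO cells. This cytosolic NADPH source did not overlap between treatments and rose by 0.53 (SE 0.074, adjusted p = 0.0187) in WT and 0.48 (SE 0.074, adjusted p = 0.0265) in KO cells, calls kept among fits without 1 library only without WT CRE 1 or KO CRE 1 (up to 0.106 and 0.128 in the others, and 0.164 and 0.214 without the libraries numbered 1). *Abcc3* stood at 118, 146 and 133 CPM with PBS and 189, 274 and 237 CPM with CRE in WT cells, and at 112, 105 and 112 CPM and 174, 175 and 181 CPM in KO cells. This conjugate exporter rose by 0.82 (SE 0.12, adjusted p = 0.0245) in WT cells, kept without the libraries numbered 1 (0.0253) and among fits without 1 library only without WT CRE 1 (0.0596 to 0.117 in the other 5), and had 0.69 (SE 0.12, adjusted p = 0.0536) in KO cells, with an interaction of -0.13 (SE 0.17). *Akr1b3* stood at 497, 522 and 484 CPM with PBS and 769, 773 and 781 CPM with CRE in WT cells, and at 341, 359 and 460.4 CPM and 568, 671 and 811 CPM in KO cells. Fits of the 6 libraries compared alone did not call these genes and gave 0.0914 and 0.148 for *Idh1*, 0.158 for *Abcc3* in WT cells and 0.311 for *Akr1b3* in KO cells. All libraries with the block gave 0.00533 and 0.00902 for *Idh1*, 0.00173 for *Abcc3* in WT cells and 0.000966 for *Akr1b3* in KO cells. Aldose reductase *Akr1b3* rose by 0.82 (SE 0.13, adjusted p = 0.0357) in KO cells, lost without KO PBS 1, KO PBS 2, KO CRE 2 or KO CRE 3 (0.116 to 0.169) and without the libraries numbered 1 (0.124), and had 0.63 (SE 0.13, adjusted p = 0.123, 0.00182 with the block) in WT cells, with an interaction of 0.19 (SE 0.19). *Abcc4* at 22.9 to 47.5 CPM rose on average by 0.62 (SE 0.10, adjusted p = 0.017), lost without WT PBS 3, KO PBS 2 or KO CRE 3 (up to 0.057). *Ugdh* at 158 to 329 CPM rose by 0.56 (SE 0.074, adjusted p = 0.00461).

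*Nqo1*, a quinone reductase, was the 1 gene of the wider list that differed by genotype. Of all genes tested 0.102% were lower in KO cells with PBS and 0.112% with CRE. *Nqo1* stood at 122, 103 and 97.9 CPM with PBS and 173, 167 and 170.1 CPM with CRE in WT cells, and at 39.4, 50.5 and 38.9 CPM and 60.9, 75.0 and 57.4 CPM in KO cells. Every KO library lay below every WT library, and CRE libraries lay above PBS libraries in both genotypes. It was lower in KO cells at -1.33 (SE 0.13) with PBS (adjusted p = 0.00163) and -1.40 (SE 0.13) with CRE (adjusted p = 0.0012), both kept in all fits without 1 library and lost without the libraries numbered 1 (0.111 and 0.0636), where the log2 fold changes were -1.16 and -1.35. A fit of the PBS libraries alone gave 0.0519. Summed over treatments the value was -1.38 (SE 0.11, adjusted p = 0.0188), lost whichever total was left out (0.0653 to 0.148) and also without those numbered 1 (0.221) and with the number as a block (0.125). CRE still raised *Nqo1* on average by 0.62 (SE 0.091, adjusted p = 0.0088), lost without the libraries numbered 1 (0.0774), with 0.66 in WT cells, 0.59 in KO cells (adjusted p = 0.0961 and 0.149, 0.00376 and 0.00659 with the block) and an interaction of -0.072 (SE 0.18). *Ephx2* passed the rule of the study as lower in CRE-treated KO cells (log2 fold change -1.02, adjusted p = 0.829), at 0.267 to 1.15 CPM.

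Positions of the members called with CRE in at least 1 genotype were *Slc7a11* (ENSMUSG00000027737, chr3:49892526-50443614), *Gclc* (ENSMUSG00000032350, chr9:77754535-77794485), *Gclm* (ENSMUSG00000028124, chr3:122245557-122270732), *Gsr* (ENSMUSG00000031584, chr8:33652523-33698163), *Akr1b8* (ENSMUSG00000029762, chr6:34354119-34368463), *Pgd* (ENSMUSG00000028961, chr4:149149991-149166771) and *Blvrb* (ENSMUSG00000040466, chr7:27447978-27466144). On the same chromosome as *Akr1b8* lies *Akr1b3* (ENSMUSG00000001642, chr6:34302434-34317478) of the wider list, which also rose. Closest among the 35 were *Akr1a1* and *Prdx1*, 33.9 kb apart on chromosome 4, and *Cbr1* and *Cbr3*, 72.7 kb apart on chromosome 16. Several genes overlap others, so that their counts are less certain: *Slc7a11* with *Gm37498* and *Gm37692*, *Gclm* with *Gm6061*, *Gsr* with *Gm24727*, *Nfe2l2* with *Gm24996*, *Ephx1* with *Gm36961*, *Tkt* with *Mir3076*, *Ftl1* with *Gm22133*, *Abcc1* with *Gm23116*, *Me1* with *Gm38230*, *Mafg* with *Sirt7* and *Txnrd1* with *Eid3* on the same strand, and *Gss* with *Acss2*, *Gpx2* with *Fntb*, *G6pdx* with *Ikbkg* and *Sod1* with *Scaf4*, among others, on the other strand. *Slc7a11* has 5 such genes over both strands. Reads of near-identical copies could be shared, and the pseudogenes *Esd-ps*, *Ftl1-ps2*, *Gpx2-ps1* and *Prdx6-ps2* reached at most 590, 76, 42 and 2 counts in a library. Only pseudogenes named by a member's symbol and the suffix -ps were looked up, and copies under other names were not searched.

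Promoters of these genes were searched for the core of the antioxidant response element, TGACNNNGC on either strand, in RefSeq promoter entries of 300 bases (250 before and 50 after the start) of build GRCm38.p6. The motif occurred in 12.4% of 32851 promoters and for 14% of 27025 genes. Of the 35 genes 30 had an entry and 10 of these a match (33.3%): *Nfe2l2*, *Mafg*, *Gclm*, *Txnrd1*, *Srxn1*, *Prdx1*, *Me1*, *G6pdx*, *Pgd* and *Sod1*. Among genes raised by CRE on average 3 of 12 had a match, and among the others 7 of 18. A match is a description of the sequence and no sign of binding, and enhancers further away were not searched. *Gclc*, *Gsr*, *Hmox1*, *Abcc1* and *Prdx6* had no entry among the promoters used here. The windows below hold the match in capitals and are given 5′ to 3′ along the gene, for the 3 raised genes with a match and for *Prdx1* and *Me1*, where TGACTCAGC is read on opposite strands: *Nfe2l2* chr2:75704855-75704913 (minus strand), *Gclm* chr3:122245383-122245471 (plus strand), *Pgd* chr4:149166033-149166119 (minus strand), *Prdx1* chr4:116685426-116685514 (plus strand) and *Me1* chr9:86695872-86695960 (minus strand).
Nfe2l2: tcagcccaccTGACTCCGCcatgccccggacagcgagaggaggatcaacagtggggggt
Gclm: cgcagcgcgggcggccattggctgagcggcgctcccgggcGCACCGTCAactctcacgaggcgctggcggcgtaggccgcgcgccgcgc
Pgd: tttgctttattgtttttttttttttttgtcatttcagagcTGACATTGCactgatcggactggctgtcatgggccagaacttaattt
Prdx1: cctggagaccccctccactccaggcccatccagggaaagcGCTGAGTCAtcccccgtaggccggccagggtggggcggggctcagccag
Me1: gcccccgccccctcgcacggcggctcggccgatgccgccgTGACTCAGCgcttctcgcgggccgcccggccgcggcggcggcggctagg
Matches began 240 bases before the start of *Nfe2l2*, 134 before that of *Gclm*, 133 before that of *Prdx1* and 6 before that of *Me1*. The match of *Pgd* lay 3 bases after the start of 1 of its 2 entries, chr4:149166033-149166332. That entry lies inside the gene, which runs on the minus strand from 149166771. It is counted among the matches above, and whether transcription starts there was not examined. The other entry of *Pgd* had no match.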

How the data were processed

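Gene counts and FPKM deposited by the authors were used as given. According to the submitters' processing notes reads were aligned with STAR 2.7.2b and counted with Salmon in Partek. The notes name RefSeq while the gene identifiers are Ensembl, so the annotation behind the counts is uncertain and GENCODE M21 was used only for positions. The library kit was stranded, and whether counting used the strand is not stated. Tests used edgeR 4.0.16 (filterByExpr with a minimum count of 10, TMM, quasi-likelihood F-test, 1 fit of 4 groups and 12 libraries) with Benjamini-Hochberg adjustment over all genes tested, and limma 3.58.1 and DESeq2 1.42.0 as alternatives, in R 4.3.3, with Python 3.11.15 and matplotlib 3.10.9 for descriptions and figures. CPM were scaled by TMM. Members, the wider list and the marker lists were chosen with earlier results of these data known. A member was named with its values in every library when it was called, passed the rule of the study or had 1 of the 3 lowest p-values in any comparison, and *Keap1* was added as the regulator.

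Libraries of the same number correlated over 11476 genes after removal of group means, at 0.73, 0.388 and 0.626 between treatments in WT cells and 0.563, 0.524 and 0.363 in KO cells, and at 0.393, 0.0989 and 0.131 between genotypes with PBS and 0.371, -0.0256 and 0.0593 with CRE. The numbers therefore tie libraries together across treatments more than across genotypes. Calls are nevertheless those of the fit without a block for CRE and for genotype, and the block is given beside them as an alternative. Libraries of a group differed far beyond counting noise, with chi-square per degree of freedom from 54.3 to 113.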

Additional observations from a re-analysis of the deposited data

How the results depend on the processing

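The number of members called was refitted with other size factors, filters, tools and sets of libraries. Scaling by library size alone called 7 with CRE in WT cells, adding *Pgd* and *Blvrb*, and 64 of all genes. In KO cells it called 7, adding *Tkt*, and 57 of all genes. A filter of 1 CPM in 3 libraries called 5 in WT cells and 7 in KO cells, adding *Ephx1* in KO cells, with 50 and 61 of all genes. For CRE in WT cells (5 called) DESeq2 gave 14, the rule of the study 11, a fit of the libraries compared 3, fits without 1 library 1 to 2, the fit without the libraries numbered 1 called 2, and the replicate block gave 22. For CRE in KO cells (6) the values were 17, 14, 0, 3 to 9 and 4, and 18 with the replicate block. For genotype with PBS (0) DESeq2 gave 2, the rule of the study 1 and the replicate block 2 (*Nfe2l2* and *Ephx1*), and for genotype with CRE (0) 1, 2 and 1 (*Nfe2l2*), with 0 in every fit without 1 library. The interaction went from 0 to 1 by the rule of the study and stayed at 0 with the replicate block. For CRE averaged over genotypes (15) DESeq2 gave 23, the rule of the study 12, fits without 1 library 10 to 16, the fit without the libraries numbered 1 13 and the replicate block 26. For genotype summed over treatments (0) DESeq2 gave 2, the rule of the study 1, all 12 libraries in 1 fit 1 and the replicate block 0. Of all genes DESeq2 called 409, 254 and 740 with CRE in WT cells, in KO cells and on average, the rule of the study 848, 696 and 828, and the replicate block 748, 439 and 1358. For genotype the same 3 settings called 243, 846 and 71 of all genes with PBS, 174, 705 and 55 with CRE and 205, 640 and 0 summed, and for the interaction 23, 475 and 0. All 12 libraries in 1 fit called 130. Leaving out the libraries numbered 1 was chosen after the leukocyte markers had been seen. No median changed sign. None of the log2 fold changes followed over all fits reversed, but those of *Fth1*, *Srxn1* and *Osgin1* in WT cells, among others, were not followed. The cause of these differences was not tested.

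Groups held 3 libraries, and their origin in separate animals is not stated. RNA was measured at 24 h only, after culture, and neither protein, glutathione nor NRF2 binding was measured. Which cells in the preparations lost AhR was not analysed here, and marker sums of other cells differed between libraries. WT and KO differ by Cre as well as by AhR.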
